A study of Mus musculus with 26 samples.

Results

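The 10 genes described here make, move or package melanin, or switch on the genes that do: the enzymes *Tyr*, *Tyrp1* and *Dct*, the membrane transporters *Slc45a2*, *Slc24a5* and *Oca2*, the melanosome proteins *Pmel*, *Mlana* and *Gpnmb*, and the transcription factor *Mitf*. They were listed as known pigment genes, with no threshold on their values, and are 10 of the 16426 genes in the count tables of single RPE/choroid cells. RPE/choroid is the layer behind the retina that joins the retinal pigment epithelium (RPE) to the vascular choroid. Cells from 1 male and 1 female eye were pooled for each of 2 strains, C57BL/6J and B6129PF1/J, at 3 months of age, sorted as Hoechst-positive and TO-PRO-3-negative, and sequenced as 1 library per strain. In the clusters deposited by the authors, RPE was cluster 1, with 407 cells of 3637 in the B6129PF1/J library and 374 of 3928 in the C57BL/6J library. Melanocytes were cluster 10, with 16 and 26 cells. For 9 of the 10 genes, the mean FPKM (fragments scaled by transcript length and library size) of 3 mice was also given for RPE/choroid tissue of 6-month-old C57BL/6J mice with the *Cdh5*-Cre-ERT2 transgene, whose tamoxifen-inducible Cre is driven by an endothelial promoter. Ihh iΔEC/iΔEC mice carried it with *Ihh* loxP/loxP and controls with Ihh+/+, and both had tamoxifen 12 weeks earlier. Cultured GLI1+ choroidal cells from Gli1 GFP/+ mice (strain labelled SWR/J, a line that the study crossed to BALB/c), grown from 1 pool of animals and given DMSO or 100 nM of the Hedgehog agonist SAG for 24 h, were compared in the same way, with 3 samples each. *Slc45a2* was not analysed here in bulk tissue. Means of endothelial cells sorted from neural retina, lung, liver and heart, used only near the end, came from 1-month-old mice. The study gives their strain as B6129PF1/J.

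Pigment cells make melanin from tyrosine inside melanosomes, where tyrosinase starts the pathway and the related enzymes act on its later intermediates. The eye holds pigment cells of separate origins: the RPE, a neuroepithelium that makes most of its pigment before and shortly after birth, and the melanocytes of the choroid, which come from the neural crest. PMEL forms the fibrils on which melanin is laid down, transporters set the ions and pH of the melanosome, and MITF switches on pigment genes through short E-box sequences such as CATGTG in their promoters.

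Promoters were read for 7 of the 10 genes, with all but *Pmel*, *Mlana* and *Slc45a2* matched. The sequences are shown because those of the 3 enzyme genes shared a 10-base word, the longest run of bases common to them, which holds the E-box known as the M-box. Each line gives the 250 bases before the RefSeq transcription start on build GRCm38.p6, written 5′ to 3′ on the strand of the gene, and capitals mark the longest of 3 nested words found there: GTCATGTGCT, TCATGTG or CATGTG, on either strand.
Tyr, chr7:87493513-87493762, minus strand: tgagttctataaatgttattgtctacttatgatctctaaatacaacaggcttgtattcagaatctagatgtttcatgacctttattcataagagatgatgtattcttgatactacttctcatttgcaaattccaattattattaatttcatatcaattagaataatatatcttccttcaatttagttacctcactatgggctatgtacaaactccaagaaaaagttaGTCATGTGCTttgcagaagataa
Tyrp1, chr4:80833963-80834212, plus strand: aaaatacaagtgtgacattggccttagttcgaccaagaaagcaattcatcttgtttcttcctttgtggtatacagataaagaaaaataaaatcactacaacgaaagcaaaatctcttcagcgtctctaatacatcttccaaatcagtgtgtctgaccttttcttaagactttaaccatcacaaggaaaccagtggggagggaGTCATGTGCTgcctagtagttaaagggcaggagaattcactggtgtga
Dct, chr14:118052247-118052496, minus strand: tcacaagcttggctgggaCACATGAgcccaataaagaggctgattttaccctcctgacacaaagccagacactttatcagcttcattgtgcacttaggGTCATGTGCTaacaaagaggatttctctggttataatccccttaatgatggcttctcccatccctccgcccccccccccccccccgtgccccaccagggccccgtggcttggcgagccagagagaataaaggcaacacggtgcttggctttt
Slc24a5, chr2:125067877-125068126, plus strand: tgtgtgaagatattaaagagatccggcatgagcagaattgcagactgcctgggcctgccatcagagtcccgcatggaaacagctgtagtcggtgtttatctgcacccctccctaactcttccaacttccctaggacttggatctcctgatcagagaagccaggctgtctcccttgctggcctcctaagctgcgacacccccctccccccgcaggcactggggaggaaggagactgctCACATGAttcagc
Oca2, chr7:56239509-56239758, plus strand: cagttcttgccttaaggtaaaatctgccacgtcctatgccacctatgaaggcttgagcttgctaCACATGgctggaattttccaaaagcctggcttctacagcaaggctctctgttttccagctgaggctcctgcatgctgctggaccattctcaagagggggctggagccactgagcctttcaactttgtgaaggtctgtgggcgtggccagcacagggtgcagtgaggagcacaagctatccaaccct
GTCATGTGCT began 23 bases before the start of *Tyr*, 48 before that of *Tyrp1* and 152 before that of *Dct*. That word was chosen because the enzyme genes share it. It was in none of the other 4 genes, and in 0.155% of all 32851 promoters of this length (51 of them). TCATGTG was also in the promoter of *Slc24a5*, on the opposite strand and 13 bases before the start, and a second time in that of *Dct*, 232 bases before the start. It was in 3.25% of all promoters. CATGTG was in *Oca2* as well, 186 bases before the start, and in 12.3% of all promoters. CACGTG, the other E-box searched, was in none of the 9 promoters read (3 of them alternative starts of *Mitf*) and in 6.02% of all. A match describes letters in this window and is not evidence of a bound factor.

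Levels are given as UMIs (unique molecular identifiers, each 1 counted mRNA molecule, read at its 3′ end and so not scaled by gene length) per 10,000 UMIs of a cluster. With 1 library per strain there was no test. Intervals are exact 95% intervals and cover counting error only, and the clusters were built from the same cells and genes, so folds between them are descriptions. RPE held 2999156 UMIs in the B6129PF1/J library and 1748060 in the C57BL/6J library, against 88799 and 103776 in melanocytes, while the median depth of a cell was alike in RPE and melanocytes (5263 and 5327.5 UMIs in B6129PF1/J, 3406.5 and 3454 in C57BL/6J). The labels were checked against marker lists. Of 8 RPE markers, 7 had enough UMIs and all 7 were at least 5-fold higher in RPE in both libraries, while *Best1* had at most 3 UMIs in either cluster. Of 8 melanocyte lineage markers outside the 10 genes, 7 had enough UMIs and 4 of them were at least 5-fold higher in melanocytes in each library, while *Gpr143*, for example, was 1.57-fold and 2.60-fold higher. *Ednrb*, the endothelin receptor of neural crest pigment cells, was at 18.5 and 17.2 UMIs per 10,000 in melanocytes of B6129PF1/J and C57BL/6J and at 0.0700 and 0.0114 in RPE. *Otx2*, a transcription factor of the RPE, had no UMI in melanocytes and was at 3.71 and 3.03 in RPE. The 2 libraries shared 22 cell barcodes.

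All 10 genes were highest in melanocytes of both libraries, and RPE came second for all 10 in B6129PF1/J and for 8 in C57BL/6J. Together they made 6.47% and 6.34% of the UMIs of melanocytes, against 0.259% and 0.245% of those of RPE (B6129PF1/J, then C57BL/6J). At least 5-fold higher levels in melanocytes than in RPE were found for 9 of the 10 genes in B6129PF1/J, where 8.29% of the 9510 genes with 10 UMIs or more in the 2 clusters were as much higher. In C57BL/6J it was 8 of 10, against 7.43% of 8439 genes. *Oca2* missed that fold in both libraries and *Tyr* in C57BL/6J. None of the 10 was at least 5-fold higher in RPE, as were 25.3% and 17.5% of all genes. These shares include genes with 10 UMIs or more in RPE and no melanocyte UMI, and melanocytes held far fewer UMIs than RPE. Among the genes compared that had a UMI in both clusters, the median ratio was 1.61 and 1.49. This leaves out genes with no melanocyte UMI, so it does not describe all genes compared. Among all of them, the *Oca2* ratio of 1.55 and 1.31 ranked 3777 of 9510 and 3998 of 8439. Scaling by the median of ratios, taken over genes with 10 UMIs or more in each cluster, lowers every fold by a factor of 1.61 in each library (log2 0.69 and 0.68). The number of genes past 5-fold was then 8 and 7, against 3.94% and 3.48% of all genes compared. *Mitf* fell to 3.35 in B6129PF1/J and *Slc24a5* to 3.95 in C57BL/6J. Some markers of other cells were also found in melanocytes. Of the stromal markers 0 of 3 with enough UMIs were at least 5-fold higher than in RPE in B6129PF1/J and 2 of 3 in C57BL/6J, where 4 cells held 49 UMIs of *Lum* and 2 cells 57 of *Dcn*, against 1 and 4 UMIs in B6129PF1/J. Of the endothelial markers 2 of 3 were in B6129PF1/J, with 7 UMIs of *Kdr* in 1 cell, and 0 of 1 in C57BL/6J. None of the 4 smooth muscle and pericyte or the 3 hematopoietic markers was in either library, and *Csf1r* had no UMI in melanocytes. The part of these cells' RNA in the levels was not tested.

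**Figure D1:**
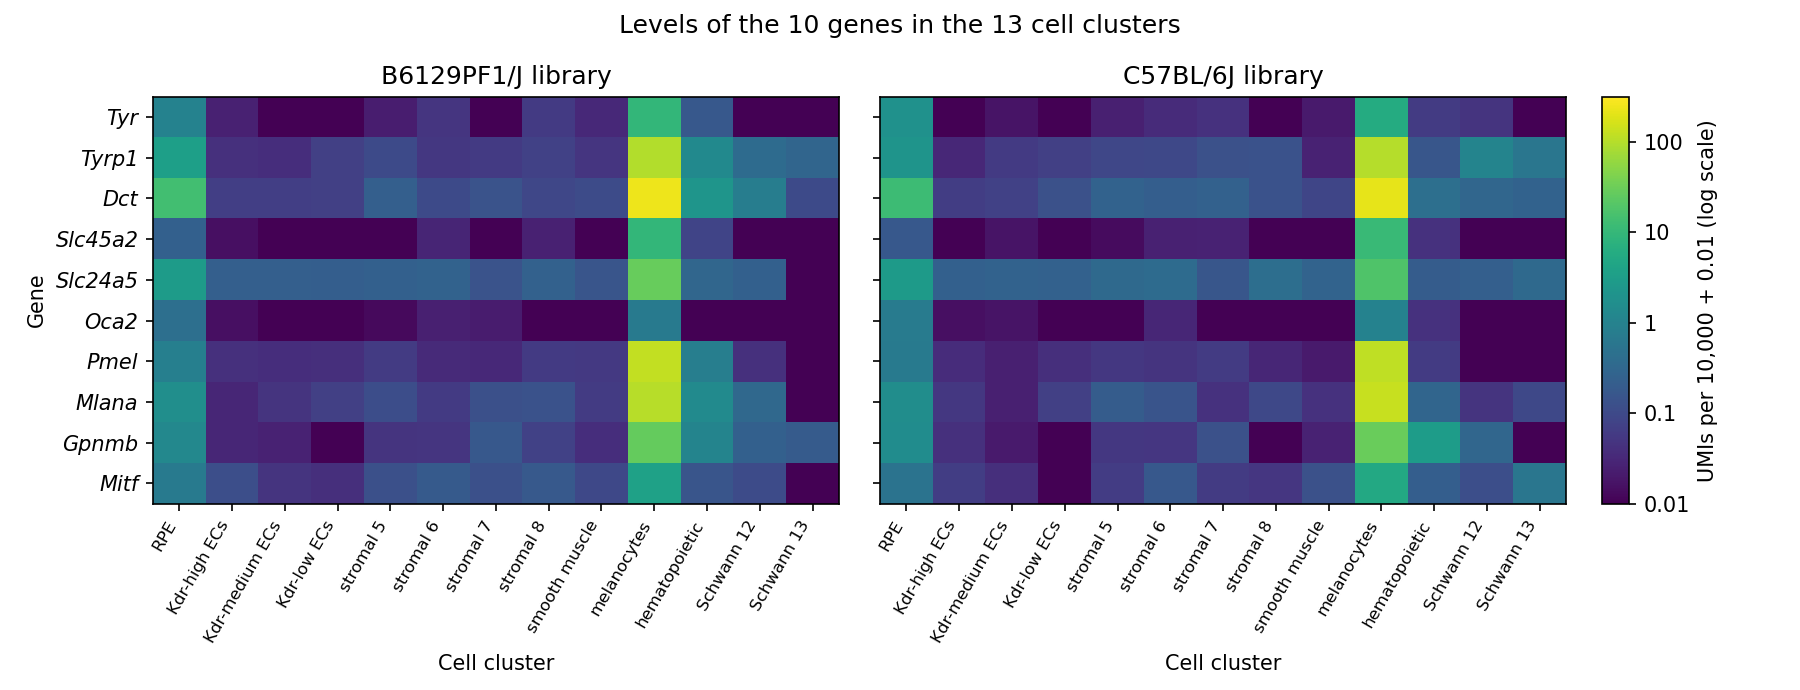
Level of each of the 10 genes (rows) in the 13 cell clusters (columns) of each library, as UMIs per 10,000 plus 0.01 on a log colour scale. The melanocyte column is the brightest for every gene, the RPE column is next for most, and *Slc24a5* keeps a faint signal of 0.255 or less (B6129PF1/J) and 0.419 or less (C57BL/6J) per 10,000 in the clusters other than RPE, melanocytes and hematopoietic cells.

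The 3 enzymes were all detected in RPE as well as in melanocytes. *Dct*, which encodes dopachrome tautomerase and rearranges dopachrome on the way to brown-black eumelanin, was the most abundant of the 10 genes in both cell types. In B6129PF1/J it was at 13.4 UMIs per 10,000 (13.04 to 13.9) in RPE and 245.6 (235.4 to 256) in melanocytes, a ratio of 18.3 (17.3 to 19.2). In C57BL/6J it was at 12.3 (11.8 to 12.9) and 216.5 (207.7 to 226), a ratio of 17.6 (16.6 to 18.7). Because RPE cells were far more numerous, RPE held 62.0% and 46.7% of all *Dct* UMIs of the 2 libraries, against 33.5% and 48.7% in melanocytes. *Tyrp1*, a tyrosinase-related protein that acts in the eumelanin branch, was at 3.45 in RPE and 96.2 in melanocytes of B6129PF1/J, 27.9-fold apart (25.4 to 30.5). In C57BL/6J it was at 2.12 and 98.5, 46.5-fold apart (41.3 to 52.5). The enzyme that starts the pathway had the lowest level of the 3. In RPE of C57BL/6J its interval (1.72 to 2.13) overlapped that of *Tyrp1* (1.91 to 2.34). *Tyr* was at 0.970 (0.862 to 1.09) in RPE and 9.57 (7.65 to 11.8) in melanocytes of B6129PF1/J, a ratio of 9.87 (7.65 to 12.6). In C57BL/6J its ratio was 3.02 (2.25 to 3.98), from 1.92 in RPE and 5.78 in melanocytes, and RPE held 80.9% of its UMIs in that library against 14.5% in melanocytes.

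The 3 transporters differed widely in how far the cell types lay apart. *Slc45a2*, a melanosome membrane transporter whose loss causes a form of albinism, was hardly present in RPE, at 0.233 UMIs per 10,000 in B6129PF1/J and 0.166 in C57BL/6J. In melanocytes it was at 9.35 and 11.2, a ratio of 40.05 (28.8 to 55.9) and 67.4 (44.5 to 105). *Slc24a5*, a potassium-dependent sodium/calcium exchanger, was at the same level in RPE of both libraries, 2.88 and 2.87, and at 28.6 and 18.2 in melanocytes. Its ratio was 9.93 (8.60 to 11.4) in B6129PF1/J and 6.34 (5.34 to 7.51) in C57BL/6J. A further 21.2% and 35.2% of its UMIs came from the 11 clusters other than RPE and melanocytes. It overlaps *Myef2* on the opposite strand over 4050 bases at its 3′ end (chr2:125084628-125088677, GENCODE vM21 on GRCm38), and the part of that overlap in the low level elsewhere was not tested. *Oca2*, a chloride channel component that raises melanosome pH, was the exception among the 10 genes. Its level in melanocytes rested on 6 UMIs in 4 of 16 cells of B6129PF1/J and 10 UMIs in 3 of 26 cells of C57BL/6J. The melanocyte level was 0.676 and 0.964 per 10,000 against 0.437 and 0.738 in RPE, a ratio of 1.55 (0.558 to 3.46) and 1.31 (0.612 to 2.48). Both intervals include equal levels, a difference was not detectable at this depth, and RPE held 91.6% and 87.2% of all *Oca2* UMIs. After thinning each cell to 1700 UMIs, and also in the authors' own cluster averages, C57BL/6J *Oca2* was highest in RPE, and the ratio fell below 1 in 4 alternatives, to 0.452 without the 5% of cells with the most UMIs. In B6129PF1/J it was 0.958 with median-of-ratios scaling.

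Of the melanosome proteins, *Pmel* and *Mlana* had the largest ratios of the 10 genes in both libraries. *Pmel*, whose protein forms the melanosome fibrils, was at 0.874 UMIs per 10,000 (0.771 to 0.986) in RPE and 120.4 (113 to 128) in melanocytes of B6129PF1/J, a ratio of 138 (120.3 to 158). In C57BL/6J it was at 0.692 (0.574 to 0.827) and 117 (111 to 124), a ratio of 169 (140.5 to 206). That ratio ranked 38 of 9510 genes and 37 of 8439. *Mlana*, a small melanosome membrane protein that assists PMEL maturation, was at 1.65 in RPE and 105 in melanocytes of B6129PF1/J, 63.9-fold apart (57.3 to 71.4). In C57BL/6J it was at 1.58 and 131, 83.1-fold apart (72.9 to 94.9). *Gpnmb*, a glycoprotein related to PMEL that macrophages also make, was at 1.2504 in RPE and 27.4 in melanocytes of B6129PF1/J, and at 1.56 and 29.6 in C57BL/6J. Its ratio was 21.9 (18.5 to 25.8) and 19.01 (16.1 to 22.5). *Mitf*, the transcription factor of the group, was low in both cell types: 0.687 in RPE and 3.72 in melanocytes of B6129PF1/J, and 0.509 and 5.204 in C57BL/6J. Its ratio was 5.41 (3.63 to 7.84) in B6129PF1/J and 10.2 (7.15 to 14.5) in C57BL/6J, and 38.6% and 44.4% of its UMIs came from the other 11 clusters.

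**Figure D2:**
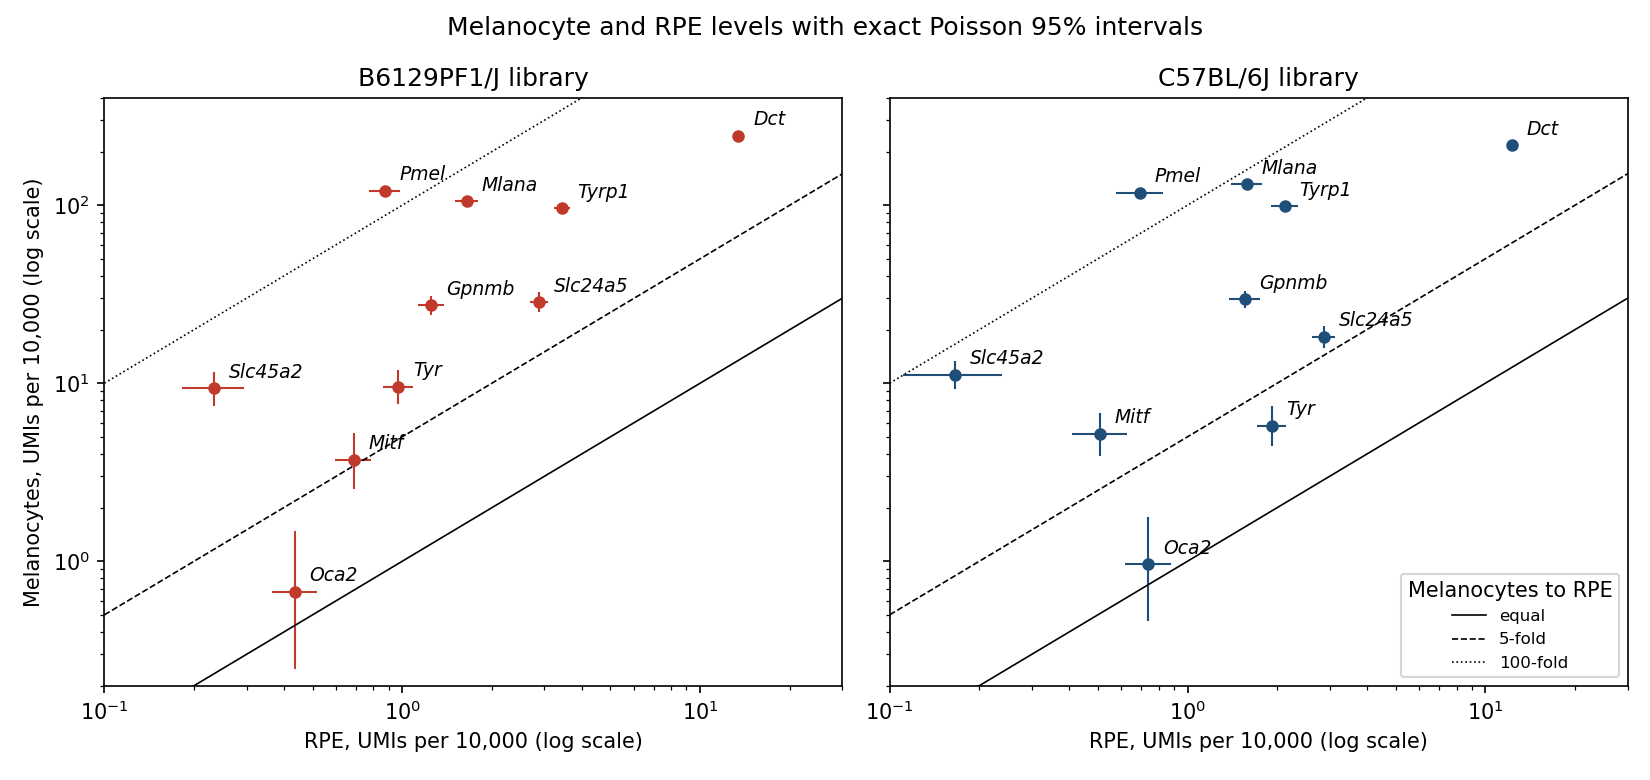
Level in melanocytes (vertical axis) against level in RPE (horizontal axis), both in UMIs per 10,000 on log axes, with exact Poisson 95% intervals as bars, for the 10 genes in each library. *Pmel* lies above the 100-fold line in both libraries, *Oca2* lies nearest the line of equal levels, and *Tyr* moves from above the 5-fold line in B6129PF1/J to below it in C57BL/6J.

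The order of the levels was partly alike in the 2 libraries. In melanocytes of B6129PF1/J the order was *Dct*, *Pmel*, *Mlana*, *Tyrp1*, *Slc24a5*, *Gpnmb*, *Tyr*, *Slc45a2*, *Mitf* and *Oca2*, and the intervals overlapped for *Mlana* and *Tyrp1*, for *Slc24a5* and *Gpnmb*, and for *Tyr* and *Slc45a2*. In C57BL/6J *Mlana* came before *Pmel*, *Gpnmb* before *Slc24a5* and *Slc45a2* before *Tyr*, and of the neighbours only *Tyr* and *Mitf* had overlapping intervals. *Oca2* was last in melanocytes of both. In RPE *Dct* again came first and *Slc45a2* last in both libraries. Next after *Dct* came *Tyrp1* and then *Slc24a5* in RPE of B6129PF1/J, and the other way round in C57BL/6J, with no overlap of their intervals in either library.

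Single cells showed the same separation with some overlap. In melanocytes the 10 genes made 4.42% to 8.35% of a cell's UMIs in B6129PF1/J (median 6.39%) and 1.13% to 9.64% in C57BL/6J (median 6.13%). In RPE the median was 0.203% and 0.207%, and the highest cell had 4.34% and 2.09%. *Dct* ranged from 128 UMIs per 10,000 through a median of 243 to 362 in the 16 melanocytes of B6129PF1/J, and from 33.7 through 218 to 401 in the 26 of C57BL/6J. The RPE medians of *Dct* were 9.71 and 9.79. The highest RPE cells reached 276 and 100.1, within the range of the melanocytes and, in B6129PF1/J, above their median. All melanocytes of B6129PF1/J had at least 8 of the 10 genes detected and those of C57BL/6J at least 7, whereas the median RPE cell had 4 in both libraries. 2 RPE cells of each library had none.

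The share of RPE cells with a UMI was 92.4% and 91.7% for *Dct*, the highest of the 10 genes, 13.3% and 7.22% for *Slc45a2* and 13.02% and 9.09% for *Pmel* (B6129PF1/J, then C57BL/6J). In endothelial cells, used here for comparison, the shares were 2.67% and 2.44% for *Dct*, 1.51% and 0.977% for *Pmel* and 3.48% and 1.66% for *Mitf*. Their median depths were 4153 and 3420 UMIs. Whether these UMIs came from the endothelial cells themselves was not tested. The RPE shares of all 10 genes stood above the endothelial ones in both libraries, also after thinning each cell to 1700 UMIs, where *Pmel* had a UMI in 6.63% and 6.15% of RPE cells against 0.463% and 0.488% of endothelial cells. *Slc24a5* had the highest endothelial share, 10.3% and 10.2%, against 70.8% and 64.2% in RPE. *Tyrp1* was found in 74.4% and 50.3% of RPE cells, *Gpnmb* in 44.7% and 36.9%, *Mlana* in 44.5% and 36.1%, and *Tyr* in 39.8% and 51.9%.

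*Pmel* was spread over RPE cells very unevenly. It was found in 53 of 407 RPE cells of B6129PF1/J and 34 of 374 of C57BL/6J, and the 10 cells with the most UMIs held 67.6% and 69.4% of its RPE total. For *Dct* the top 10 cells held 16.3% and 18.2%. The RPE cells with 5 or more *Pmel* UMIs, 15 and 8 of them and picked for that gene, had *Dct* at 67.6 and 44.2 UMIs per 10,000, against 12.2 and 11.4 in the other RPE cells. *Mlana* was at 11.1 and 5.16 in them against 1.42 and 1.48, and *Gpnmb* at 7.84 and 10.9 against 1.09 and 1.29. *Tyr* was at 1.57 (0.783 to 2.81) and 3.10 (1.73 to 5.11) against 0.956 and 1.88, with intervals that reached the level of the other cells. These cells also carried the RPE markers, with *Rlbp1* at 37.7 and 37.2 against 40.7 and 36.8 and *Rpe65* at 35.2 and 31.8 against 58.5 and 60.7. *Trpm1*, a cation channel gene of melanocytes and other cells, was at 9.56 and 3.10 in them against 0.420 and 0.530. *Ednrb* had 5 UMIs in 2 of the 15 cells, a level of 0.713 (0.232 to 1.66) against 0.0546 in the other RPE cells. It had none in the 8, against 0.0118 in the others. *Pax3*, a neural crest transcription factor, had 2 UMIs in 1 of the 15 and none in the 8. Other melanocyte lineage markers did not follow *Trpm1*. *Met* was at 0.143 (0.00361 to 0.795) and 0.826 (0.225 to 2.11) in these cells, against 1.36 and 1.97 in the other RPE cells. *Sox10* was at 0.428 and 0.206 against 0.444 and 0.471, and *Kit* had 1 UMI in the 15 and none in the 8. The median depth of the cells rich in *Pmel* was 4344 and 3801.5 UMIs, against 5406.5 and 3387.5 in the rest. Doublets were not removed, and their part in these cells was not tested. Without the 5% of RPE cells with the most UMIs of the 10 genes, the melanocyte-to-RPE ratio of *Pmel* was 212 in B6129PF1/J and 492 in C57BL/6J, and in RPE cells with no *Pmel* UMI *Dct* was still at 10.9 and 10.5.

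**Figure D3:**
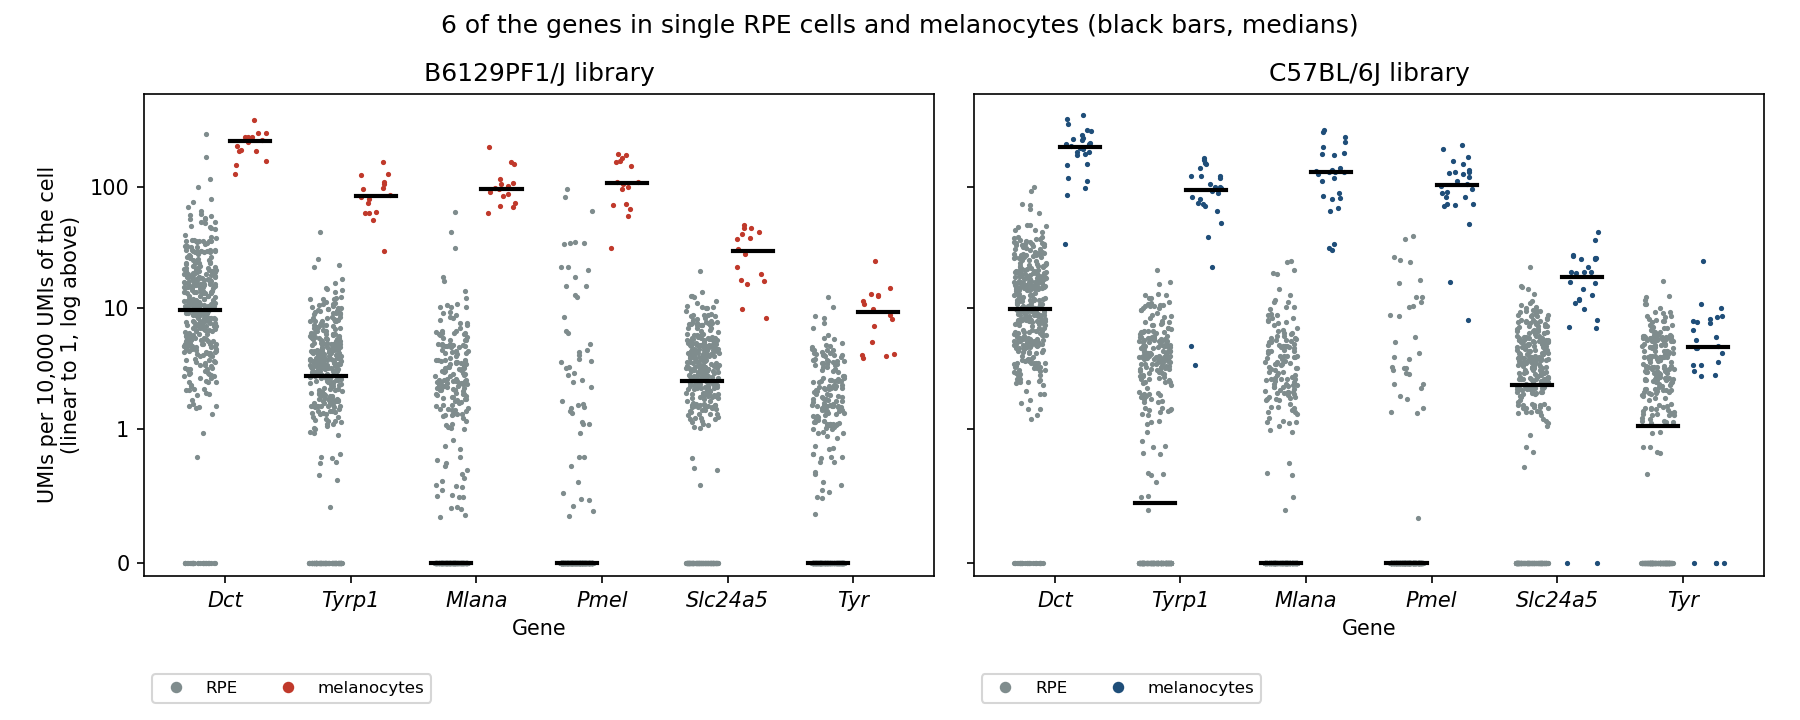
UMIs per 10,000 UMIs of each cell for 6 of the genes in single RPE cells (grey) and melanocytes (coloured) of each library, on an axis that is linear up to 1 and logarithmic above, with black bars at the medians. *Dct* is present in most RPE cells, whereas *Pmel* is at 0 in all but 53 of 407 and 34 of 374 RPE cells, some of which lie within the range of the melanocytes.

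Outside the RPE and melanocytes, levels were mostly low. In the authors' Schwann clusters of C57BL/6J, *Mitf* reached 0.584 UMIs per 10,000 (0.235 to 1.20) in cluster 13, where it was second highest, and *Tyrp1* 1.06 (0.712 to 1.53) in cluster 12. In B6129PF1/J, *Dct* had a UMI in 17.6% of the cells of cluster 12, at 0.784 per 10,000. The hematopoietic cluster held single cells rich in these genes. In B6129PF1/J, 1 cell of that cluster with 9131 UMIs held 104 of its 121 *Dct* UMIs, 71 of 78 *Mlana*, 66 of 73 *Tyrp1* and 40 of 45 *Pmel*. The same cell had 84 UMIs of *Cd74* and 18 of *Lyz2*, markers of antigen-presenting and myeloid cells, and 10 of *Ednrb*. In C57BL/6J, *Gpnmb* was second highest in hematopoietic cells, at 3.08 per 10,000. All 187 UMIs lay in 9 of 127 cells, and the top cell had 65 of them with 94 UMIs of *Lyz2* and none of the other 9 genes.

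The 2 strains were compared within each cell type as values, since strain and library cannot be told apart. In RPE, 3 of the 10 genes differed at least 1.5-fold: *Tyr* was 1.98-fold higher in C57BL/6J (1.68 to 2.32), *Oca2* 1.69-fold higher in C57BL/6J (1.31 to 2.17), and *Tyrp1* 1.63-fold higher in B6129PF1/J (1.45 to 1.84). Among all 10263 genes compared in RPE, 11.5% were as much higher in B6129PF1/J and 11.5% in C57BL/6J, so the share of the 10 genes was near the background. *Slc24a5* was the most even of them, with a ratio of 1.00 (0.898 to 1.12), and *Dct* had 1.09 (1.04 to 1.15). In melanocytes, *Tyr* was 1.66-fold higher in B6129PF1/J (1.18 to 2.34) and *Slc24a5* 1.57-fold (1.30 to 1.91), 2 of 10 genes, against 17.5% of 2829 genes that far higher in B6129PF1/J and 20.9% in C57BL/6J. *Pmel* was at 1.03 (0.945 to 1.12) and *Tyrp1* at 0.977 (0.891 to 1.07). *Tyr* was therefore lower in RPE and higher in melanocytes of B6129PF1/J. Thinned to 1700 UMIs per cell, 5 genes passed in RPE: *Slc45a2*, *Pmel* and *Mitf* were added as higher in B6129PF1/J, and *Tyrp1* fell to 1.47.

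Lists of other pigment genes were mixed where the 10 genes were nearly uniform. Of the signals and receptors, *Ednrb* and *Kit*, the receptor for the melanoblast growth factor KITL, were at least 5-fold higher in melanocytes in both libraries, 2 of the 4 genes with enough UMIs. *Kit* rested on 5 and 6 melanocyte UMIs. In RPE 1 of the 4 was as much higher in B6129PF1/J and 0 in C57BL/6J. Of all genes compared, 8.29% and 7.43% were at least 5-fold higher in melanocytes and 25.3% and 17.5% in RPE. Of the transcription factors, *Sox10*, a neural crest factor, was 4.57-fold higher in melanocytes of B6129PF1/J (2.63 to 7.51) and 4.16-fold in C57BL/6J (2.41 to 6.85) and was detected in RPE. *Tfeb*, a relative of MITF, had ratios of 5.87 (1.48 to 17.2) and 4.01 (1.18 to 10.9) from 4 and 5 melanocyte UMIs. *Pax3* passed the fold in both libraries with 11 and 10 melanocyte UMIs against 5 and 0 in RPE. At least 5-fold higher in melanocytes were 2 of 5 transcription factors in B6129PF1/J and 1 of 5 in C57BL/6J. As many were at least 5-fold higher in RPE, 2 of 5 and 1 of 5. None of the 5 transporters and channels with enough UMIs was at least 5-fold higher in melanocytes. In RPE 1 of them was in B6129PF1/J and 0 in C57BL/6J. *Gpr143*, a melanosome receptor, had a ratio of 1.57 (0.743 to 2.95) and 2.60 (1.52 to 4.24), *Clcn7*, a lysosomal chloride transporter, 3.31 and 1.20, and its partner *Ostm1* 0.861 and 0.521.

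Genes that process PMEL went apart. *Bace2*, the protease that cuts PMEL into fibril-forming fragments, was 5.09-fold higher in melanocytes of B6129PF1/J (3.76 to 6.77) and 6.42-fold in C57BL/6J (4.79 to 8.52). *Cd63*, a tetraspanin that sorts PMEL, was 2.501-fold and 2.21-fold higher. *Apoe*, which carries PMEL onto vesicles, was higher in RPE, with ratios of 0.493 and 0.336. *Mif* and *Ddt*, whose products convert dopachrome-like compounds in vitro, were also higher in RPE, at 0.644 and 0.388 in B6129PF1/J and 0.703 and 0.650 in C57BL/6J. Of 18 genes of the melanosome biogenesis complexes, 18 and 15 had enough UMIs, and 3 and 2 of these were at least 5-fold higher in melanocytes, against 8.29% and 7.43% of all genes. As much lower were 1 and 3, all with no melanocyte UMI, against 25.3% and 17.5% of all genes. *Rab38*, a GTPase that delivers cargo to melanosomes, was among the higher ones, at 38.1-fold (24.2 to 60.2) and 96.4-fold (58.1 to 169), while *Bloc1s1* had 0.647 and 0.507 and *Dtnbp1* 2.18 and 1.37.

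The genes most like each of the 10 were found from Pearson's r of log2(UMIs per 10,000 + 0.1) over 26 values, 13 clusters in each of 2 libraries, among 11517 genes with 100 UMIs or more. The 26 values share cells, depth and 2 libraries, so r is a description. *Trpm1* was among the first 3 genes for 9 of the 10, with r from 0.90 for *Mitf* to 0.98 for *Pmel*. *Oca2* was the exception, with *Adhfe1*, *Gpr143* and *Tspan10* first, each at 0.99. *Tyr* and *Dct* had *Gsta1* and *Gsta2*, glutathione transferases, among their first 3, with r of 0.99 and 0.98 for *Tyr* and 0.97 and 0.96 for *Dct*. *Pmel* and *Mlana* shared *Syt4* and *Tpd52l1*, at 0.96 and 0.95 for *Pmel* and both at 0.93 for *Mlana*. *Tyrp1* had *Rab38* and *Atp6v1g1*, *Slc45a2* had the connexin genes *Gjb6* and *Gjb2*, *Slc24a5* had *Gpr143* and *Gsta2*, *Gpnmb* had *Myo5a* and *Aph1c*, and *Mitf* had *Atp6v1g1* and *Sytl2*. Ranked by Spearman's rho, 5 of these 30 genes stayed among the first 3. Among the 10 genes themselves, r was highest for *Pmel* with *Slc45a2* (0.99) and lowest for *Slc24a5* with *Gpnmb* (0.82).

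The bulk comparison asked how RPE/choroid tissue changes when endothelial cells lose *Ihh*, the Hedgehog ligand of the choroid. Only the authors' mean over 3 mice per group was used, so no spread and no test can be given, and in bulk tissue fewer cells of a type and less RNA per cell cannot be told apart. *Ihh* itself was at 1.53 FPKM in Ihh+/+ and 0.454 in Ihh iΔEC/iΔEC tissue, a 3.37-fold difference on the FPKM scale. Of the 9 pigment genes, 3 were at least 1.5-fold lower after deletion (ratio of FPKM + 0.1, for genes whose larger mean reached 1 FPKM), and none was as much higher. Among all 11411 genes, 2.41% were that much lower and 2.02% that much higher, and the median log2 difference was −0.04. Counting genes at least 25% higher in controls, 5 of the 9 and 8.08% of all genes passed, and at 2-fold 0 of the 9 and 0.648% of all.

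The 3 genes were *Pmel*, *Tyrp1* and *Dct*. *Pmel* was at 515 FPKM in Ihh+/+ and 280.2 in Ihh iΔEC/iΔEC tissue, a log2 difference of −0.88. *Tyrp1* was at 461 and 256, a log2 difference of −0.85. They stood at places 108 and 117 of 11411 genes counted from the largest fall. *Dct*, the most abundant of the 10 genes also by this length-scaled measure, was at 678 and 445, a log2 difference of −0.61, place 243. With median-of-ratios scaling it was −0.57 and *Dct* no longer reached 1.5-fold. *Mlana* was lower by less, at 420 and 295 FPKM (log2 −0.51). *Slc24a5* was at 103 and 78.1 (log2 −0.39), and its overlapping neighbour *Myef2* at 18.96 and 15.6 (log2 −0.28), in a table whose counting was not stated to use strand. *Mitf* differed little, with 15.7 and 14.1 FPKM (log2 −0.16). For the remaining 3 the means were nearly the same: *Tyr* at 43.6 in both groups, *Gpnmb* at 191 and 190.2, and *Oca2* at 36.6 and 35.8. The sign of *Oca2* and *Gpnmb* (log2 −0.03 and −0.00) turned to positive with median-of-ratios scaling. The 3 enzymes ran from no difference for *Tyr* to a 1.80-fold lower mean for *Tyrp1*.

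**Figure D4:**
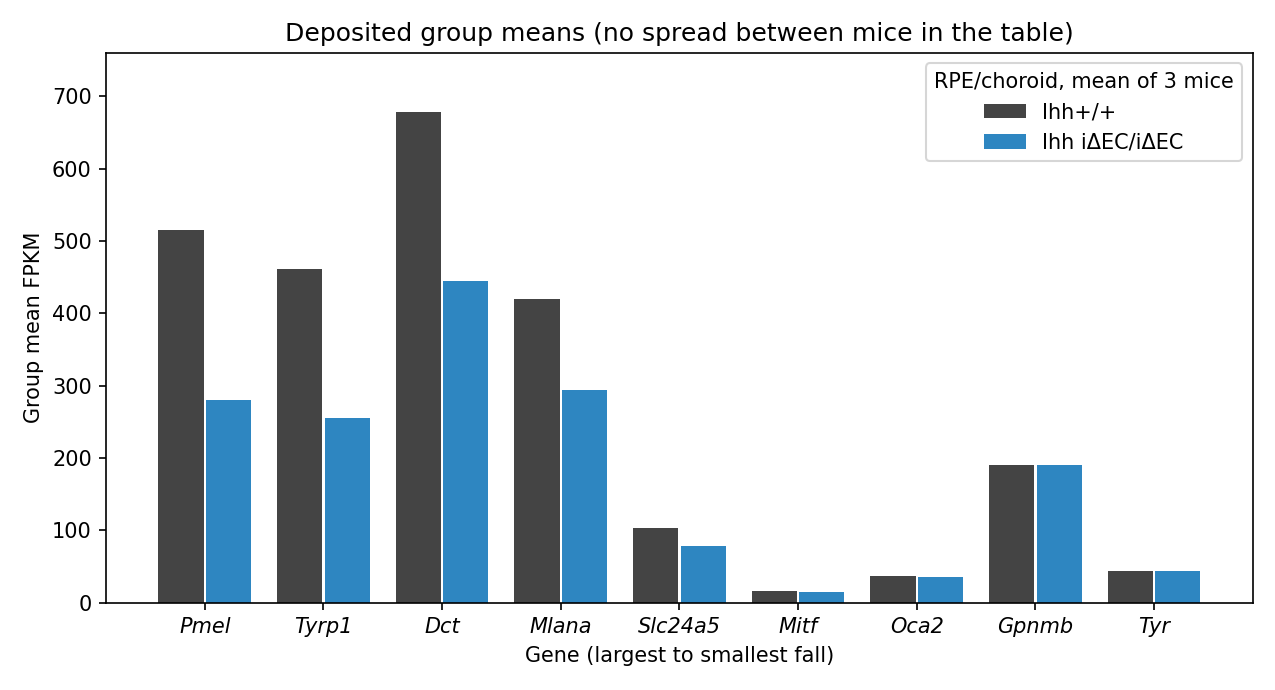
Group mean FPKM of 9 of the genes in RPE/choroid tissue of Ihh+/+ (dark) and Ihh iΔEC/iΔEC mice (blue), each bar the authors' mean of 3 mice and without error bars because no spread was available. The pairs of bars for *Pmel*, *Tyrp1* and *Dct* differ most, and those of *Gpnmb*, *Oca2* and *Tyr* are level.

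Markers of other cells moved in the same tissue. All 6 RPE markers compared had a higher mean after deletion, with a median log2 difference of 0.28 and none past 1.5-fold: *Rpe65* was at 682 and 914 FPKM and *Rlbp1* at 606 and 703. Of 6 melanocyte lineage markers outside the 10 genes, 5 had a lower mean (median log2 −0.30), from *Trpm1* at 40.5 and 26.9 to *Met*, the one with a higher mean, at 33.5 and 37.2. *Ednrb* was at 46.7 and 33.3. Of the stromal markers 3 of 4 were at least 1.5-fold lower (median log2 −0.70), as were all 3 mast cell markers compared (−1.56) and all 5 rod photoreceptor markers (−1.36). None of the 4 endothelial, 4 smooth muscle and pericyte and 4 hematopoietic markers compared was, with medians of −0.27, −0.19 and 0.05. The part of any of these shifts in the levels of the pigment genes was not tested.

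Among the 9 genes, those higher in melanocytes than in RPE tended to have the lower means after *Ihh* deletion. Across genes, Pearson's r between the log2 melanocyte-to-RPE ratio and the bulk log2 difference was −0.71 with the B6129PF1/J library and −0.78 with C57BL/6J, and Spearman's rho was −0.68 and −0.72. The 9 genes share the same tissue samples and are not independent replicates. Without *Oca2* and *Pmel*, the ends of the range, r was −0.50 and −0.64. *Gpnmb* lay off this pattern: it was 21.9-fold and 19.01-fold higher in melanocytes, and the ratio of its bulk means was 0.997. *Tyr* was 9.87-fold and 3.02-fold higher in melanocytes with a bulk ratio of 1.001, whereas *Slc24a5*, at 9.93-fold and 6.34-fold, had 0.761.

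**Figure D5:**
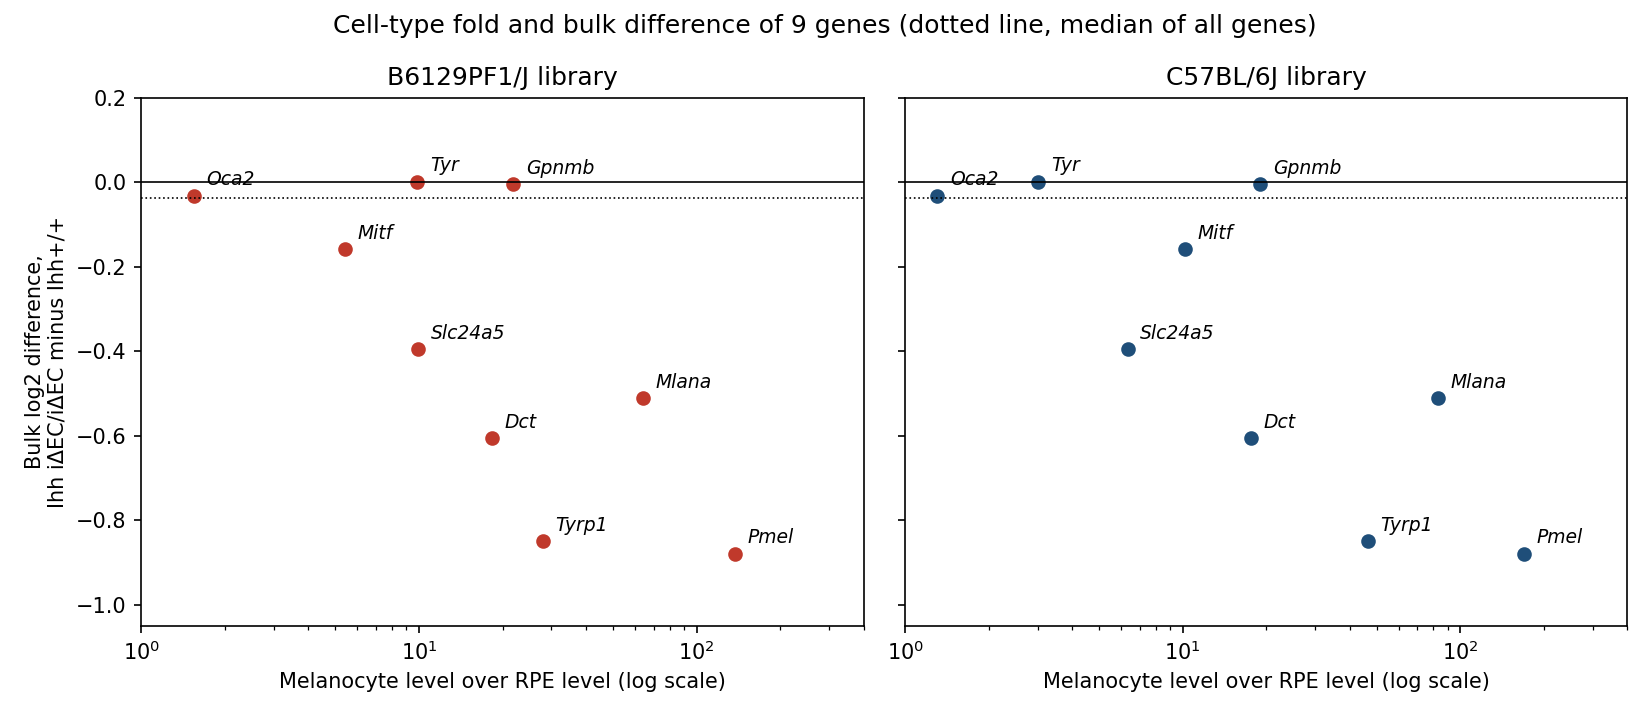
Bulk log2 difference of FPKM, Ihh iΔEC/iΔEC minus Ihh+/+ (vertical axis), against the ratio of melanocyte to RPE level (horizontal axis, log scale) for 9 genes, with the ratio of each library in its own panel. *Pmel* and *Tyrp1* lie lowest, at −0.88 and −0.85, while *Tyr*, *Gpnmb* and *Oca2* lie at the line of no difference at ratios from 1.31 to 21.9.

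Cultured GLI1+ cells, which are stromal cells that answer Hedgehog signals, hardly carried these transcripts. With DMSO, *Tyr*, *Oca2*, *Tyrp1*, *Dct*, *Mlana*, *Mitf* and *Pmel* were between 0.0447 and 0.641 FPKM, and with SAG between 0.0327 and 0.728. *Slc24a5* was at 1.96 and 2.38. *Gpnmb* was the one gene past 1.5-fold, at 1.255 FPKM with DMSO and 2.495 with SAG, a ratio of 1.99, in a comparison where 1.3% of 10325 genes were at least 1.5-fold higher and 2.37% lower. These are again the authors' means of 3 samples from 1 cell pool, with no test.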

How the data were processed

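Single RPE/choroid cells of 2 strains were measured with a 10x Genomics 3′ kit (1 library per strain), and RPE/choroid tissue and cultured GLI1+ cells by bulk RNAseq (3 samples per group). The authors deposited raw UMI counts per gene and cell, made with Cell Ranger and filtered and clustered in Seurat 2.1 on build mm10, the library and cluster of each cell, and cluster averages on a natural log scale of UMIs scaled to 10,000 per cell. The deposited FPKM values are group means that the authors computed with STAR 2.4.0f1, SAMtools 0.1.19 and Cufflinks 2.0.2, tools that the submitters' processing notes name. The authors' columns of fold changes and p-values in the bulk and cluster tables were not used. The tables hold fewer cells than the study states as sequenced. All deposited cells had at least 1717 UMIs, so the minimum of 1700 stated by the authors removed none of them here. How many cells it removed before deposit is not known. Doublets were not removed here. Every column could be matched to a sample or group (0 left out).

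UMIs were summed over the cells of a cluster, as deposited, and divided by the cluster's total. Levels have exact Poisson, shares exact Clopper-Pearson and ratios exact conditional binomial 95% intervals, which cover counting error only. A gene entered a comparison with 10 UMIs or more in both sides together. Folds of 5 (cell types) and 1.5 (strains, bulk) were used to count genes. With group means and 1 library per strain, no test across samples was possible. The bulk difference is on log2(FPKM + 0.1), which understates that of low genes. All 10 genes were named, and of each list up to 3 genes with the most UMIs in the 2 clusters and the bulk extremes. *Rpe65*, *Rlbp1*, *Ednrb* and *Pax3* in RPE cells rich in *Pmel*, and other marker genes outside that rule, were named after their values were seen. The 10 genes and the lists were chosen with earlier results of these data known. Alternatives were means over cells, thinning to 1700 UMIs, other minimums, scalings, folds and pseudocounts, and leaving out cells. The steps were tested on simulated data. The Schwann cell markers are not reported here. The 10-base promoter word was found as the longest run shared by the 3 enzyme promoters. Promoters came from RefSeq (GRCm38.p6) and gene positions from GENCODE vM21. Tools were pandas 2.3.3, numpy 2.4.6 and scipy 1.17.1 under Python 3.11.15, with matplotlib 3.10.9 for plots.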

Additional observations from a re-analysis of the deposited data

Results flagged for a closer look

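*Tyr* went in opposite directions between the libraries in the 2 pigment cell types. The ratio of B6129PF1/J to C57BL/6J was 0.506 (0.431 to 0.594) in RPE and 1.66 (1.18 to 2.34) in melanocytes. With 1 library per strain this difference was not tested. Its direction was the same in each of the 5 alternatives that recomputed the ratio, from 0.445 to 0.527 in RPE and from 1.64 to 2.39 in melanocytes. These alternatives reuse the same 2 libraries. Of all genes, 11.5% passed 1.5-fold in each direction in RPE, and 17.5% and 20.9% in melanocytes. The share that passed in opposite directions is not given here.

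A table of 99 genes that the authors selected as high in sorted choroid endothelial cells holds 2 of the 10 genes. *Pmel* had a mean of 18.8 FPKM in choroid endothelial cells, against 0.435 in neural retina, 0.185 in lung, 0.153 in liver and 0.078 in heart endothelial cells. *Tyr* had 1.60 FPKM in choroid endothelial cells, 0.015 in neural retina, 0.026 in liver, and was listed at 0 in lung and heart. The genes were listed because they were high there, and the libraries behind the choroid column were not analysed here. The sorted cells came from mice of 1 month and the single cells from mice of 3 months. In the single endothelial cells, *Pmel* was at 0.0301 UMIs per 10,000 in B6129PF1/J and 0.0206 in C57BL/6J, below the level in RPE and melanocytes.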

How the results depend on the processing

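Results were recomputed under 387 alternatives, 48 of them for the counts of genes past a fold. A turn of direction could be seen only in alternatives for single genes that had been called, and none of those turned. Of the 48 counts, 43 stayed within 1.5 times the count reported. The 5 others were a change of the fold or of depth. Of the 9 genes, 5 were at least 25% higher in controls than after *Ihh* deletion (background 8.08%), and 0 were at least 2-fold higher (0.648%). For the strains in RPE, 5 genes passed after thinning and 0 at 2-fold, and in melanocytes 0 passed at 2-fold. The shares of all genes under these strain alternatives are not given here. With 30 UMIs as the minimum, the background of 5-fold higher genes in melanocytes was 4.602% and 3.94%, with the counts of 9 and 8 as before. Median-of-ratios scaling of the bulk means left 2 genes at 1.5-fold, without *Dct*. The ratio of *Pmel* ranged from 71.1 to 212 in B6129PF1/J and from 105 to 492 in C57BL/6J, that of *Tyr* in C57BL/6J from 1.88 to 3.07 and that of *Oca2* there from 0.452 to 1.37. The last was below 1 as a mean over cells (0.808), after thinning (0.881), with median-of-ratios scaling (0.813) and without the 5% of cells with the most UMIs (0.452), as was that of *Oca2* in B6129PF1/J with median-of-ratios scaling (0.958), and 1 cell held 70.0% of the 10 melanocyte UMIs of C57BL/6J. No paired analysis was possible because the bulk tables give group means and each strain has 1 library, and for the same reason leaving out each replicate, the replicate block and limma were not run. Depth limits the genes with under 100 melanocyte UMIs in a library: *Oca2*, *Mitf*, *Tyr* and, in B6129PF1/J, *Slc45a2*.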

Other observations

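Other pigment genes in RPE/choroid tissue after *Ihh* deletion are given as the authors' group means, with no test, beside 2.41% of all 11411 genes at least 1.5-fold lower and 2.02% higher. The ligands of the pigment cell receptors were among the lower ones: *Edn3*, the endothelin that acts on EDNRB, was at 104 FPKM in Ihh+/+ and 54.1 in Ihh iΔEC/iΔEC tissue, and *Kitl* at 15.9 and 9.42, so that 2 of 4 signals and receptors were at least 1.5-fold lower, while *Kit* was at 3.31 and 2.97. Of 18 genes of the melanosome biogenesis complexes 1 was, *Rab38*, at 19.6 and 11.9, and the highest of them by ratio, *Bloc1s1*, was at 105 and 125. None of 6 transporters and channels, 3 genes of PMEL processing and 2 dopachrome-related genes was: *Gpr143* was at 18.6 and 15.3, *Ostm1* at 28.3 and 31.6, *Bace2* at 23.7 and 19.1, *Apoe* at 2590.3 and 2739, *Mif* at 378 and 420 and *Ddt* at 59.2 and 62.7. Of 7 transcription factors, *Tfap2a*, a neural crest factor, was lower at 2.44 and 1.49, and *Pax6*, an eye factor also made by the neural retina, was higher at 0.570 and 5.62.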
